A study of Homo sapiens with 9 samples.

Results

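These results describe the baseline gene expression of MOLM-13 cells carrying a control short hairpin RNA (shCONTROL), taken from the 3 shCONTROL RNA-seq libraries of a series of 9 libraries. MOLM-13 is an established human acute myeloid leukaemia (AML) line, labelled as peripheral blood, that carries the KMT2A::MLLT3 fusion and an internal tandem duplication of FLT3. The 3 libraries were chosen by their label, and every row with an Ensembl gene identifier was kept, which gave 56541 genes of the 56542 rows of the table. The wider series asks what loss of BCLAF1, a nuclear RNA-binding protein, does in these cells, and its other libraries were not used here. All shCONTROL cells had received doxycycline at 200 ng/µL for 4 days, so untreated MOLM-13 cells without a hairpin were not measured. Total RNA was depleted of ribosomal RNA before sequencing, which keeps RNAs without a poly(A) tail. The libraries all carry batch label 1, and no label says that the replicates came from separate cultures, so the spread given here may be technical.

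AML arises from blood progenitors that keep dividing in place of maturing. KMT2A fusions recruit transcription elongation factors and DOT1L to their target genes, and leukaemias with such a fusion are known for high HOXA9, HOXA10 and MEIS1. MLLT3-fused leukaemias often resemble the monocytic branch of myeloid development. FLT3 is a receptor tyrosine kinase of progenitors, and its internal tandem duplication makes it signal without ligand. The genes were therefore read in lists that cover lineage markers, the HOX genes and other known targets, signalling and survival genes, and the classes of RNA.

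The libraries held 34988573, 33076169 and 35305650 estimated counts in replicates 1, 2 and 3. Values are counts scaled to the library's total (CPM), given per library or as mean ± SD with n = 3. A gene was taken as expressed at 1 CPM or more in all 3 libraries, and 3 counts, used as the floor of counting, equalled 0.0850 to 0.0907 CPM. By that rule 13884 genes were expressed (24.6%), 37583 were listed at 0 in all 3 libraries (66.5%), and 5074 lay between. Of 18961 protein-coding genes, 10554 were expressed, or 55.7%, and 7738 were listed at 0, or 40.8%. These are the shares against which each list below is set. Long noncoding genes matched in RefSeq reached 700 of 5061, or 13.8%. Because the counts are estimates, a 0 can be a failed estimate, and genes are described as listed at 0 rather than as absent. The pseudoautosomal genes are a doubtful case: 17 protein-coding symbols that occupy 2 rows each and lie on X were all listed at 0. Among them was SLC25A6, a mitochondrial carrier that most cells express, and the cause of these zeros was not tested. A long transcript also yields more counts than a short one, and no exon lengths were at hand. CPM values of different genes are therefore shares of the counts and no order of RNA levels, except where a value per kilobase is given.

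The marker profile was myeloid, with granule protein genes and myeloid transcription factors expressed and markers of most other lineages listed at 0. Of 24 myeloid transcription factors 23 were expressed (95.8%), and of 23 granule protein genes 16 (69.6%). The factor list also holds genes that are not confined to myeloid cells, such as MYB, so its share does not by itself mark the lineage. Among 84 markers of other blood lineages (erythroid, megakaryocyte, T, B, natural killer, mast cell) 12 were expressed and 69 were listed at 0 (82.1%, against 40.8% of protein-coding genes). Among 35 markers of epithelial, fibroblast, endothelial, neural and liver cells 3 were expressed and 31 were listed at 0 (88.6%). The labelled cell type, AML cells, therefore had defining markers of the myeloid lineage. In bulk RNA, fewer cells with a marker and less of it per cell cannot be told apart.

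**Figure D1:**
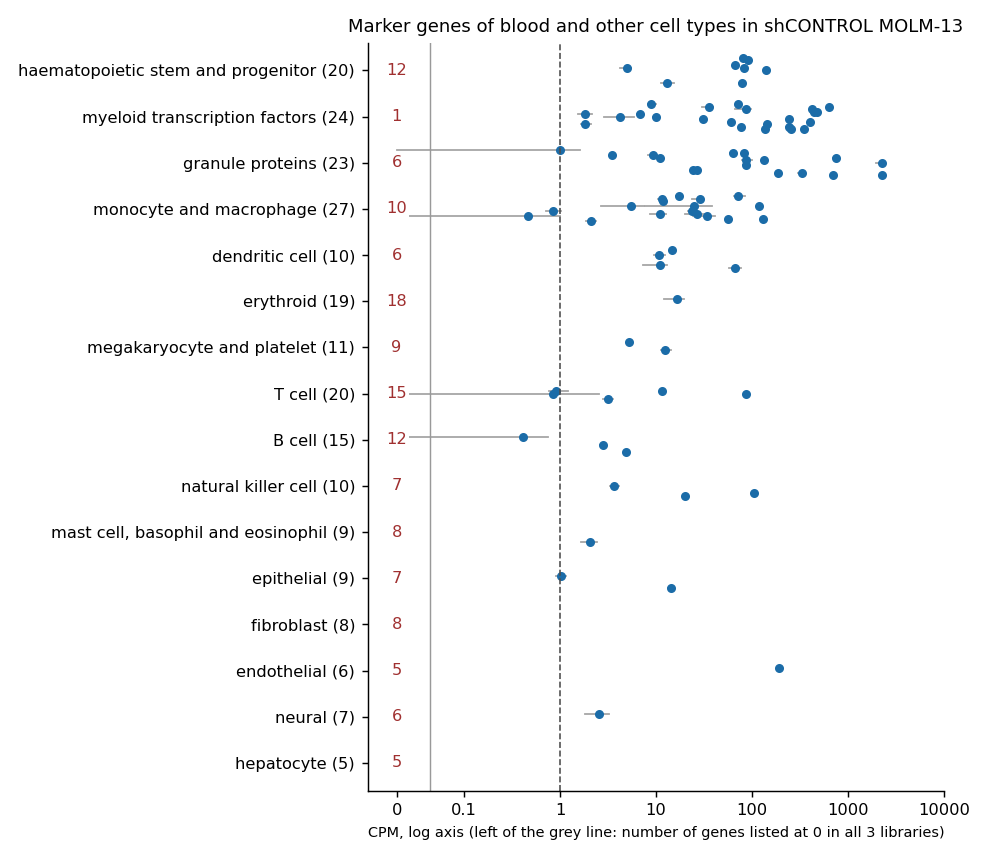
Levels of lineage markers in the shCONTROL libraries. Each point is the mean CPM of 1 gene on a log axis, the grey line through it spans the 3 libraries, the red number counts the members listed at 0, the number after each name is the members in the table, and the dashed line marks 1 CPM. Myeloid transcription factors have 1 member at 0, while the erythroid list has 18 of 19 at 0 and the fibroblast and hepatocyte lists have none above it.

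Proteins of the primary granules, the first to form, are made in the promyelocyte stage and in monocytes, and stored for killing microbes. PRTN3, which encodes proteinase 3, stood at 2399, 1962 and 2433 CPM in replicates 1, 2 and 3 (2265 ± 262). Replicate 2 was the lowest of the 3. SRGN, the core protein of the granule proteoglycan serglycin, stood at 2364, 2135 and 2263 CPM. These were the only members of the lineage lists among the 20 genes with the most counts. LYZ, which encodes lysozyme, was at 792, 685 and 744 CPM, again lowest in replicate 2. AZU1, the antimicrobial protein azurocidin and a neighbour of PRTN3 and ELANE on chromosome 19, was at 695 ± 23.5 CPM. ELANE, neutrophil elastase, was at 341, 303 and 345 CPM. MPO, the peroxidase that marks granulocyte precursors, was at 83.7, 78.3 and 99.2 CPM, and CTSG, cathepsin G, at 81.5 ± 3.42 CPM. The eosinophil granule genes RNASE2 and PRG2 were at 186 ± 6.22 and 62.5 ± 4.28 CPM. The secondary granule genes LTF, CAMP, LCN2 and MMP8 were each listed at 0 in all 3 libraries, as were CEACAM8 and the defensin gene DEFA4. MMP9, the gelatinase of tertiary granules, gave 0, 1.63 and 1.39 CPM.

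Monocyte and macrophage markers were divided. Of 27 genes 15 were expressed (55.6%, against 55.7% of protein-coding genes), 10 were listed at 0 and 2 lay between. MS4A7, a membrane protein of monocytes and macrophages, was at 131, 131 and 128 CPM. LILRB4, an inhibitory receptor of monocytic cells and of monocytic AML, was at 117, 124 and 115 CPM. ITGAX, which encodes CD11c, was at 71.6 ± 10.1 CPM, and CSF1R, the receptor for the macrophage growth factor CSF1, at 55.5 ± 2.53 CPM. FCGR1A, the high-affinity receptor for IgG, was at 23.9 ± 2.41 CPM, and ITGAM, which encodes CD11b, at 10.9 ± 2.00 CPM. The defining markers of mature monocytes CD14, FCGR3A and FCN1 were listed at 0. So were the tissue macrophage genes CD163, MRC1, SIGLEC1, C1QA and C1QB, with S100A12 and CLEC7A. The calprotectin genes S100A8 and S100A9, abundant in circulating monocytes, were at 0.840 ± 0.160 and 2.10 ± 0.239 CPM. VCAN, a proteoglycan gene of classical monocytes, differed between libraries, at 37.7, 29.7 and 7.68 CPM.

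The transcription factors that build the myeloid lineage were expressed with small spread. MYB, which maintains progenitors, was at 628, 620 and 630 CPM. CEBPA, the factor of granulocyte and monocyte commitment, was at 437, 422 and 455 CPM. SPI1, which encodes PU.1, was at 251, 245 and 262 CPM, and IRF8, a factor of monocyte and dendritic fate, at 416, 388 and 401 CPM. RUNX1 stood at 417 ± 10.6, ZEB2 at 471 ± 4.43, IKZF1 at 348 ± 6.65 and GFI1 at 242 ± 5.00 CPM. In these 8 genes the libraries lay close together. Factors tied to later steps held few counts: CEBPE, needed for late granules, was at 1.84 ± 0.314 CPM, and KLF4 at 6.74 ± 0.457 CPM. IRF4 was the list's member at 0. FLI1 varied most in relative terms among the members above 10 CPM, at 98.1, 65.7 and 97.5 CPM.

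Stem and progenitor markers were expressed in 8 of 20 cases, or 40%, and the other 12 were listed at 0. The zeros included CD34 and PROM1, the surface markers of primitive cells, KIT, the stem cell factor receptor, the transcription factor genes MECOM, HLF, ERG and TAL1, and SPINK2. GATA2 was at 135, 145 and 140 CPM, CD38 at 82.7, 87.1 and 77.9 CPM, and SOX4 at 89.8 ± 1.70 CPM. LMO2 and LYL1, partners in a progenitor transcription complex, were at 79.1 ± 4.79 and 66.4 ± 1.69 CPM. In the dendritic cell list 4 of 10 were expressed, with AXL, a receptor kinase, at 65.4, 76.2 and 57.8 CPM.

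Markers of other lineages that did reach the threshold were few. CD4, a T cell co-receptor that monocytes also carry, was at 88.5, 87.5 and 85.8 CPM. NCAM1, which encodes CD56, a natural killer antigen also seen on some AML cells, was at 102, 108 and 101 CPM. PECAM1, an endothelial and myeloid adhesion molecule, was at 187, 198 and 185 CPM. NKG7 was at 19.8 ± 0.673, EPOR at 16.6 ± 4.08, MUC1 at 14.3 ± 0.851, VWF at 12.3 ± 1.75 and CD3D at 11.6 ± 0.506 CPM. GP1BA, BANK1, NCR3, IL7R, SLC17A7 and TPSB2 lay between 2.08 and 5.21 CPM. The T cell list otherwise had 15 of 20 at 0, the B cell list 12 of 15 and the natural killer list 7 of 10. No member of the fibroblast or hepatocyte list was above 0.

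HOXA genes were expressed and the other HOX clusters were listed at 0. HOX genes encode homeodomain transcription factors, and those of the A cluster hold progenitors in a self-renewing state. Of 11 HOXA genes 10 were expressed (90.9%). All 28 genes of the HOXB, HOXC and HOXD clusters were at 0 in every library. HOXA9 (ENSG00000078399, chromosome 7, 27162438 to 27165537, GRCh38.p14) was at 102, 101 and 94.2 CPM. HOXA10 was at 51.4, 47.7 and 49.7 CPM. HOXA11 was at 20.05 ± 0.818, HOXA13 at 14.7 ± 1.89, HOXA7 at 14.7 ± 0.606 and HOXA5 at 10.2 ± 0.546 CPM. HOXA6 was at 5.81 ± 0.226 and HOXA4 at 2.24 ± 0.553 CPM, and HOXA2 was at 0. The HOXA3 gene, at 11.6 ± 0.568 CPM, spans HOXA4, HOXA5 and HOXA6 in RefSeq, so counts could be divided between these 4 genes in more than 1 way. Antisense RNAs of the cluster were detected as well: HOXA11-AS was at 8.56 ± 1.11, HOXA10-AS at 6.93 ± 0.683, HOXA-AS3 at 5.07 ± 0.693 and HOTAIRM1 at 2.08 ± 0.308 CPM. The libraries were stranded, but no source states that the counting used strand, so these values and those of the genes opposite them are uncertain.

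**Figure D2:**
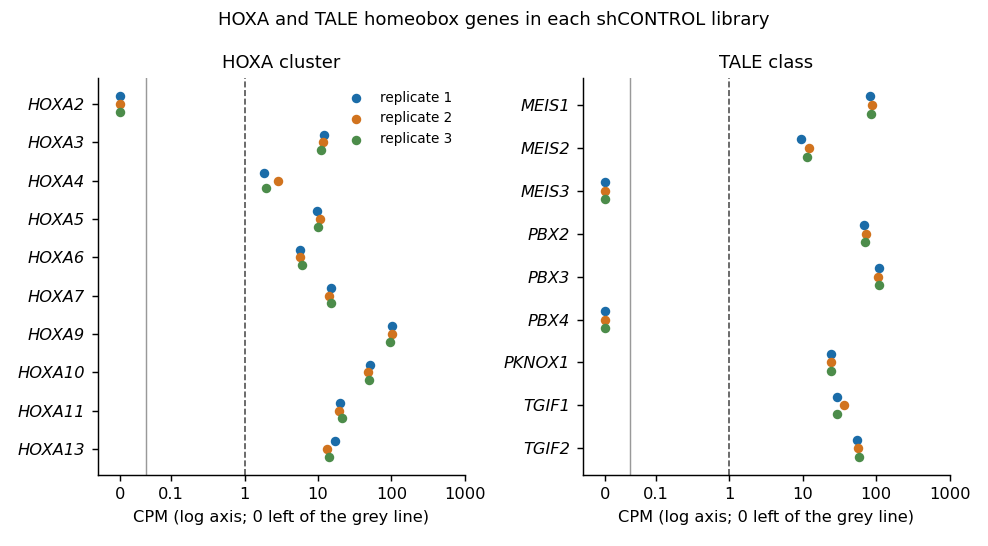
CPM of HOXA and TALE-class genes in the 3 shCONTROL libraries, on a log axis with zeros left of the grey line and 1 CPM dashed. HOXA9 and HOXA10 lie at the right of the HOXA panel in all 3 libraries, and HOXA2, MEIS3 and PBX4 lie at 0.

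TALE-class homeodomain proteins bind DNA together with HOX proteins. PBX3 was at 108, 107 and 109 CPM and MEIS1 at 83.0, 88.9 and 83.6 CPM, with no library apart from the rest. PBX2 was at 70.4 ± 2.74, TGIF2 at 56.7 ± 1.57 and PKNOX1 at 24.2 ± 0.118 CPM. PBX4 and MEIS3 were among the members listed at 0. In all, 7 of 10 members were expressed.

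The other genes known as KMT2A-fusion targets were expressed in 18 of 23 cases, or 78.3%. CDK6, a kinase that drives G1 progression, was at 910, 912 and 866 CPM. MYC was at 694, 677 and 700 CPM. BCL2, which blocks apoptosis, was at 401, 440 and 406 CPM. MEF2C was at 385, 400 and 368 CPM, and JMJD1C at 393 ± 24.5 CPM. FLT3 was at 318, 348 and 328 CPM. The 3 libraries differed by little in each of these genes. LAMP5, a membrane protein gene, was at 255, 218 and 262 CPM. The RNA-binding protein genes IGF2BP2 and IGF2BP3 were at 98.7 ± 0.723 and 63.0 ± 3.63 CPM, whereas the members listed at 0 included HMGA2, EYA1, SIX4 and PROM1.

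Each of 21 genes of the KMT2A complex and of fusion cofactors was expressed. KMT2A was at 122, 131 and 117 CPM, and MLLT3 at 16.5, 16.9 and 16.5 CPM. Gene counts do not separate the fusion transcript from the normal alleles, so both values may hold fusion reads. Elongation factor genes included AFF1 at 272 ± 6.47 and AFF4 at 117 ± 4.89 CPM. DOT1L, the histone H3 methyltransferase that these fusions recruit, was at 259, 271 and 269 CPM. MEN1, which encodes menin, the adaptor that tethers KMT2A to chromatin, was at 42.2, 36.7 and 31.8 CPM. PSIP1, the chromatin partner of menin, was at 77.5 ± 2.33 CPM.

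**Figure D3:**
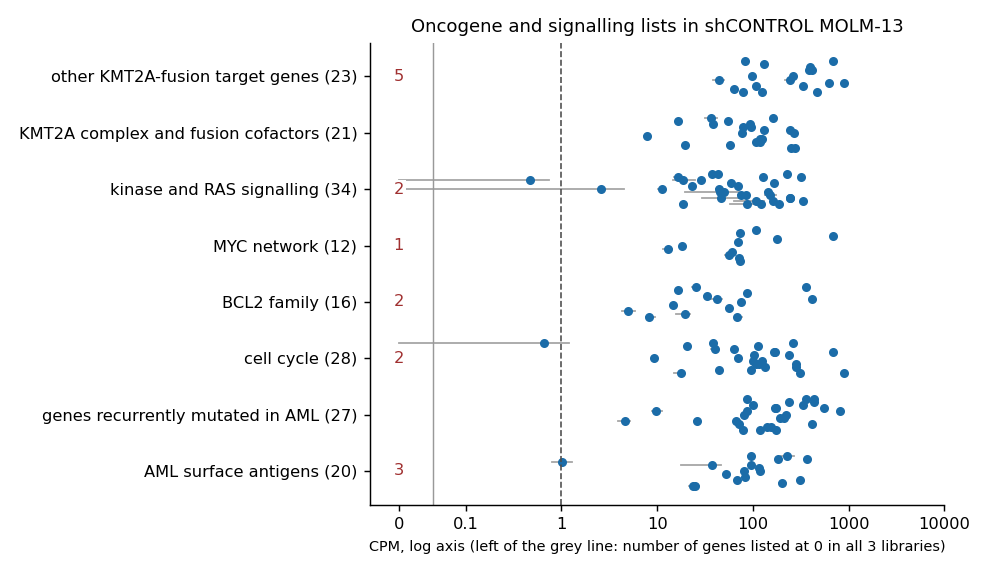
Levels of oncogene, signalling, cell cycle and surface antigen lists in the shCONTROL libraries. Points are mean CPM on a log axis, grey lines span the 3 libraries, red numbers count members listed at 0, and the dashed line marks 1 CPM. The 21 cofactor genes and the 27 genes mutated in AML have no member at 0.

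Signalling genes were expressed in 30 of 34 cases (88.2%). LYN, a SRC-family kinase of myeloid cells, was at 318, 322 and 315 CPM. CSF3R, the receptor for granulocyte colony-stimulating factor, was at 229, 262 and 247 CPM. The RAS gene NRAS was at 128, 117 and 116 CPM. STAT3, at 126, 132 and 63.0 CPM, and AKT1, at 101, 103 and 58.0 CPM, were each lowest in replicate 3. FCGR2A, from the surface antigen list, was also lowest there, at 46.9, 46.7 and 17.8 CPM. The FLT3 ligand gene FLT3LG was at 0.657, 0 and 0.736 CPM and therefore not expressed by the rule. SPRY4, a feedback inhibitor of RAS signalling, gave 4.52, 3.20 and 0 CPM, and its mean of 2.57 CPM was 1.60 without replicate 1.

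In the BCL2 family 14 of 16 genes were expressed. Beside BCL2, the anti-apoptotic MCL1 was at 363, 374 and 341 CPM, while BCL2L1, which encodes BCL-XL, was at 16.4 ± 0.399 CPM and BCL2A1 at 4.94 ± 0.830 CPM. The effectors BAX and BAK1 were at 56.8 ± 4.23 and 32.9 ± 1.95 CPM. The BH3-only genes BID, BCL2L11 (BIM), BMF, PMAIP1 (NOXA) and BBC3 (PUMA) were at 87.4 ± 4.33, 74.95 ± 3.99, 68.8 ± 6.59, 41.9 ± 6.10 and 25.5 ± 2.09 CPM. BOK and HRK were listed at 0. In the MYC network 11 of 12 genes were expressed, with MYCN at 0, MYCL at 12.95 ± 1.31 CPM and the partner gene MAX at 72.5 ± 2.40 CPM.

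Cell cycle genes were expressed in 25 of 28 cases (89.3%). MKI67, the proliferation antigen, was at 692, 673 and 705 CPM, and PCNA, the replication clamp, at 296, 268 and 287 CPM. Among D-type cyclins CCND3 and CCND2 were at 284 ± 12.3 and 239 ± 11.3 CPM, and CCND1 at 38.4 ± 2.06 CPM. RB1 was at 260, 278 and 248 CPM. The CDK inhibitor genes CDKN2A and CDKN2B, which lie side by side on chromosome 9, were both listed at 0, and CDKN1C gave 0.743, 1.21 and 0 CPM, with a mean of 0.651 that was 0.372 without replicate 2. CDKN2C, CDKN1A and CDKN1B were at 113 ± 1.05, 171 ± 9.27 and 107 ± 0.549 CPM. The neighbours of CDKN2A were looked up after the zeros had been seen. CDKN2B-AS1 and DMRTA1 were also at 0, while on the other side MTAP was at 49.9, 49.3 and 49.0 CPM, KLHL9 at 19.3 ± 0.513 CPM and FOCAD at 32.1 ± 1.32 CPM. That side held zeros as well, since MIR31HG, which lies between KLHL9 and MTAP, was listed at 0 in all 3 libraries. The DNA of the region was not analysed here.

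All 27 genes recurrently mutated in AML were expressed. NPM1, a nucleolar chaperone, was at 557, 545 and 554 CPM. WT1 was at 82.3, 87.4 and 88.7 CPM, and TET2 and DNMT3A were at 77.8 ± 3.68 and 70.9 ± 3.09 CPM. The cohesin gene RAD21 was at 813 ± 33.9 CPM. U2AF1, a splicing factor gene, held the fewest counts of the 27, at 4.92, 3.87 and 5.18 CPM, which gives no order of RNA levels. The counts are estimates, and whether so low a value reflects the RNA of U2AF1 was not tested.

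Of 20 surface antigens discussed as AML targets 16 were expressed. CD33, the target of gemtuzumab, was at 97.4, 90.2 and 98.1 CPM. IL1RAP was at 94.9 ± 5.69, CD47 at 115 ± 3.92, CD70 at 68.8 ± 0.781 and CD93 at 80.3 ± 1.44 CPM. CD44 stood at 208, 198 and 269 CPM, highest in replicate 3. CLEC12A was at 0.8003, 0.907 and 1.30 CPM and HAVCR2 at 0. IL3RA, which encodes CD123, and CD99 were also listed at 0, but both are among the 17 pseudoautosomal symbols with doubled rows, so nothing about these antigens is read from the zeros.

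Promoter sequences from RefSeq (GRCh38.p14) were set beside the lists. The window ran from 250 bases before to 50 bases after each start, and CG pairs and the letters TATAA were counted in it, the latter on the gene's own strand from 40 to 21 bases before the start. A window was found for 79.96% of 18900 protein-coding genes with a unique symbol, and for 75.8% of those listed at 0. That is too few for a comparison of expressed genes with genes at 0, which is void. Among expressed protein-coding genes 83.0% had one, with a median of 27 CG pairs. Of 15 expressed monocyte markers 14 had one, with a median of 2.5 CG pairs (1 to 33). For HOXA genes the median was 24.5 over 8 of 10, and for expressed cell cycle genes 29 over 21 of 25. The first 250 bases of 4 windows are printed as examples, 3 from those lists and PRTN3 for its TATAA match, with CG pairs in capitals.
MS4A7 (chr11:60378282-60378531, + strand): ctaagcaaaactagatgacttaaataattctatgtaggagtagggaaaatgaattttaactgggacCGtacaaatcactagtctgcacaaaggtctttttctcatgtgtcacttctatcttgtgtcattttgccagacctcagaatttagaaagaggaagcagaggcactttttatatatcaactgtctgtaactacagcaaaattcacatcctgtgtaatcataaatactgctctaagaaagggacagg
HOXA9 (chr7:27165538-27165787, - strand): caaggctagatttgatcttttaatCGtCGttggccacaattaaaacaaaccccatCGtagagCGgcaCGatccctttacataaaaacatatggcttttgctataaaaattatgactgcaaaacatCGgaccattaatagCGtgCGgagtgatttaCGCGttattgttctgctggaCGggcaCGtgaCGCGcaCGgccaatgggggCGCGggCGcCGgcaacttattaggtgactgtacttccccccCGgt
CDK6 (chr7:92836574-92836823, - strand): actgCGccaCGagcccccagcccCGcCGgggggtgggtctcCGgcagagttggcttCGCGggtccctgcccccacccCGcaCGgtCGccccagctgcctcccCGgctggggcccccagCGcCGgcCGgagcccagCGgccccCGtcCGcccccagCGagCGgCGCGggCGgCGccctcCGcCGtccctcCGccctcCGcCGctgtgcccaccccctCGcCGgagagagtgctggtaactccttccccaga
PRTN3 (chr19:840749-840998, + strand): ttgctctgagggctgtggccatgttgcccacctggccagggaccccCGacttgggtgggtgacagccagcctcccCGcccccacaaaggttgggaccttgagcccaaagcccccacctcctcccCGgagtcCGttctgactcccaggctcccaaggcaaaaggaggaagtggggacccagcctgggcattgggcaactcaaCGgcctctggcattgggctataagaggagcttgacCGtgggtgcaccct
The stretches held 1 CG pair in MS4A7, 20 in HOXA9, 30 in CDK6 and 6 in PRTN3. PRTN3 had a TATAA match 31 bases before its start. In that position window 3.77% of all 35116 promoters in the reference held one, and 5.52% of those of protein-coding genes at 100 CPM and more. PRTN3 was picked because of its match, so these shares do not show that the match is unusual. HOXA9 had its match 150 bases before the start, outside that window, and MS4A7 and CDK6 had none in the full 300 bases. These are matches of letters, and no binding was measured.

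Some noncoding RNAs of transcription, protein export and RNA processing were among the genes with the most counts. RN7SK, the 7SK RNA that holds the elongation kinase P-TEFb inactive, had the most counts of all genes, at 19556, 20563 and 21039 CPM. That equalled 2.04% ± 0.0757 of the counts. The 7SL RNAs, the scaffold of the signal recognition particle, took 1.42% ± 0.101. RPPH1 and RMRP, the RNAs of RNase P and RNase MRP, took 1.18% ± 0.0648 together. RPPH1 was at 9590, 9670 and 8351 CPM, lowest in replicate 3. All of these are transcribed from single-exon genes, so a value per kilobase of gene could be given. It was 61403 CPM per kilobase for RN7SK, 30604 for RN7SL1, 26990 for RPPH1 and 9687 for RMRP. SNORD3A, the U3 RNA of ribosomal RNA processing, was at 1201 ± 130 CPM per kilobase, and TERC, the telomerase RNA, at 36.2 ± 2.03. RN7SL1 and RN7SL2 are near-identical copies, so the division of counts between them is uncertain. These RNAs are short, and how well short RNAs were retained in the library preparation was not tested.

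**Figure D4:**
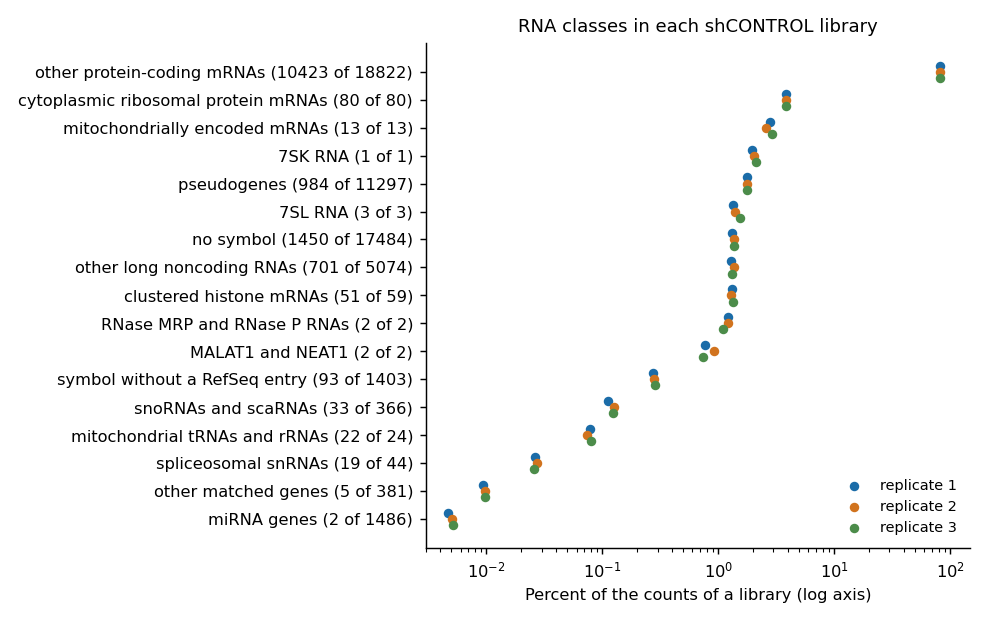
Share of the counts of each shCONTROL library held by each class of RNA, on a log axis. Points are the 3 libraries, and the numbers after a name are expressed genes of genes in the class. Protein-coding mRNAs outside the named classes hold 81.7% of the counts, and the points of 1 class lie close together.

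Protein-coding mRNAs outside the named classes held 81.7% ± 0.254 of the counts. Cytoplasmic ribosomal protein mRNAs held 3.84% ± 0.00798, and all 80 such genes were expressed. Their counts ran from RPS26 at 4.23, 4.17 and 8.13 CPM to RPL8 at 2621, 2557 and 2680 CPM, with a median of 412 CPM. Such genes have many near-identical processed copies. The pseudogene class held 1.77% ± 0.00935 of the counts, and the 5 highest pseudogenes were EEF1A1P5, RPL13AP5, RPL18AP3, RPLP0P6 and RPL7P9, all named after translation genes. EEF1A1P5 was at 1292, 1349 and 1307 CPM beside its parent EEF1A1 at 1724 ± 43.9 CPM, so the division between parent and copy is uncertain. The same holds for SMN1 and SMN2, at 2.701 ± 0.502 and 2.97 ± 0.0350 CPM.

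Mitochondrially encoded mRNAs held 2.77% ± 0.151 of the counts, lowest in replicate 2 at 2.60%. Per kilobase, MT-CO3 was at 5679 ± 338, MT-CO1 at 4836 ± 194 and MT-CO2 at 3947 ± 289 CPM, all subunits of cytochrome c oxidase. MT-ND6, the mRNA of the light strand, was the lowest of the 13 at 869 ± 67.1 CPM per kilobase, and the median was 1889. The libraries of MT-CO3, MT-CO1 and MT-CO2 did not overlap, so their ranges were apart. The ranges of MT-ND1 (2221 ± 153) and MT-ND4 (2044 ± 164) overlapped across libraries, although MT-ND1 was above MT-ND4 within each of the 3. MT-ATP8 with MT-ATP6, and MT-ND4L with MT-ND4, overlap in the genome, so their counts are uncertain. Clustered histone mRNAs, which end in a stem-loop without a poly(A) tail, held 1.32% ± 0.0308, and 51 of 59 were expressed. Summed over genes, H2A mRNAs were at 3616 ± 42.3, H2B at 2928 ± 67.8, H3 at 2602 ± 73.1, H1 at 2370 ± 73.5 and H4 at 1678 ± 69.5 CPM. H1-5, a linker histone gene, was at 1388 ± 50.7 CPM per kilobase, the highest of 52 histone genes with a span under 900 bases.

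Among long noncoding RNAs the nuclear RNA MALAT1 was at 7234, 8515 and 6747 CPM, and NEAT1, the scaffold of paraspeckles, at 415, 645 and 578 CPM. Both were highest in replicate 2. The snoRNA hosts SNHG29 and GAS5 were at 1178 ± 28.8 and 328 ± 3.25 CPM. PVT1, a neighbour of MYC, was at 159, 178 and 193 CPM. Long noncoding RNAs matched in RefSeq, other than MALAT1 and NEAT1 and with SNHG29 and GAS5 included, held 1.33% ± 0.0378 of the counts. Genes with no symbol held 1.36% ± 0.0317 and symbols without a RefSeq entry 0.280% ± 0.00483. These were not classed, and the latter included RPL30-AS1 at 331 ± 19.8 CPM. Spliceosomal snRNAs held 0.0266% ± 0.000750, and genes of miRNA hairpins 0.00497% ± 0.000291, with 2 of 1486 expressed. RNU2-2P alone gave 39.6% of the snRNA counts. How well such short RNAs were retained and counted was not tested, so these shares do not measure their abundance in the cell.

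Mature miRNAs were not measured, but their longer host transcripts were. Of 84 host genes named as such 24 were expressed and 53 were listed at 0. MIR223HG (chromosome X, 66015461 to 66020426, GRCh38.p14), host of the myeloid miRNA miR-223, was at 348, 371 and 351 CPM. MIR17HG (chromosome 13, 91347687 to 91354577), host of a cluster of 6 hairpins and a known MYC target, was at 107, 107 and 108 CPM. MIRLET7BHG was at 66.1, 79.6 and 79.6 CPM, and MIR222HG at 59.8 ± 4.06 CPM. MIR142HG, host of a miRNA found across blood cells, was at 35.3, 45.0 and 47.3 CPM, and MIR155HG at 23.6 ± 2.02 CPM. Of the mature sequences encoded by these hosts, 10 are printed as examples, chosen after the host values were seen, because the seed determines which mRNAs a miRNA can pair with. They are given 5′ to 3′ from RefSeq, with the seed (bases 2 to 8) in capitals.
hsa-miR-223-3p: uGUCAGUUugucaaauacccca
hsa-miR-17-5p: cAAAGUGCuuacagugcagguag
hsa-miR-20a-5p: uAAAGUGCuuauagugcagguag
hsa-miR-19a-3p: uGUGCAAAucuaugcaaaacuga
hsa-miR-19b-3p: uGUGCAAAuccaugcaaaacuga
hsa-let-7b-5p: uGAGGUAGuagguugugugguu
hsa-miR-221-3p: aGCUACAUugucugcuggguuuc
hsa-miR-222-3p: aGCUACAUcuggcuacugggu
hsa-miR-142-3p: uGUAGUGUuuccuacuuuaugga
hsa-miR-155-5p: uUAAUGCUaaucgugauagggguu
Within MIR17HG, miR-17-5p and miR-20a-5p share the seed AAAGUGC, and miR-19a-3p and miR-19b-3p share GUGCAAA. The MIR222HG pair, miR-221-3p and miR-222-3p, shares GCUACAU. MIRLET7BHG holds let-7a and let-7b, which share GAGGUAG. A host transcript's count does not give the amount of processed miRNA.

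All 12 reference housekeeping genes were expressed. ACTB, which encodes beta-actin, had the most counts of all nuclear mRNAs, at 6807, 6371 and 6516 CPM, and GAPDH was at 2665, 2559 and 2566 CPM. Other nuclear mRNAs among the 20 genes with the most counts, beside RPL8, PRTN3 and SRGN, were PABPC1, the poly(A)-binding protein, at 5291 ± 65.9 CPM, the elongation factor EEF2 at 4778 ± 105, ACTG1 at 3884 ± 115 and TPT1 at 2770 ± 90.2 CPM. PRKDC, the catalytic subunit of DNA-dependent protein kinase and a very long mRNA, was at 3132, 3112 and 3118 CPM. In each library 17 to 18 genes held 10% of the counts and 1050 to 1059 held 50%. BCLAF1, the gene the series targets elsewhere with a hairpin, was at 328, 335 and 318 CPM and its paralogue THRAP3 at 276, 260 and 240 CPM.

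Relative spread between libraries was small for most genes. The median coefficient of variation was 13.5% among 4793 genes of 1 to 10 CPM, 5.28% among 7357 genes of 10 to 100 CPM and 3.35% among 2325 genes of 100 to 1000 CPM. A small set departed from this. Of 9746 genes with a mean of at least 10 CPM, 117 (1.20%) had a coefficient above 50%, and 16 had a 0 in at least 1 library. TMED7, a cargo receptor of the secretory pathway, had 0, 2892 and 0 counts, so its mean of 29.1 CPM was 0 without replicate 2. RRM1, the large subunit of ribonucleotide reductase, had 30, 471 and 3768 counts, and its mean of 40.6 CPM was 7.55 without replicate 3. MCFD2 had 3285, 351 and 248 counts, and NPTN 1745, 140 and 310. Without replicate 1 their means were 8.82 and 6.51 CPM. No library was the high one throughout, since the highest value of the 117 fell in replicate 1 in 33 genes, in replicate 2 in 49 and in replicate 3 in 35. Such values are far outside the spread of other genes at their level, and the cause was not tested. A mean over the 3 libraries is not a level for these genes.

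**Figure D5:**
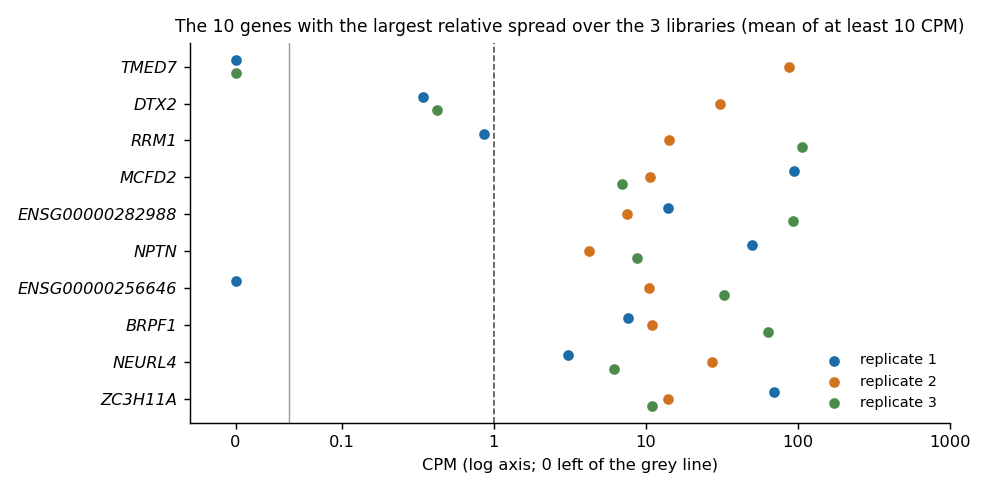
CPM of the 10 genes with the largest coefficient of variation among genes with a mean of at least 10 CPM, on a log axis with zeros left of the grey line and 1 CPM dashed. In TMED7 only replicate 2 is above 0, and in RRM1 the libraries run from 0.857 to 107 CPM.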

How the data were processed

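RNA-seq of 3 shCONTROL libraries was used. The values deposited by the authors are estimated counts (expected counts), whole numbers without normalization. STAR 2.7.11b, StringTie 2.2.3 and the build hg38 are named in the submitters' processing notes, without their roles, and the annotation is not given in the sources used here. Counts were divided by the summed counts of all genes (CPM). The entry that names no gene, 2.84% to 3.14% of the counts, was left out. PCR copies could not be removed, so the floors stand for counting error alone. The median ratio of variance to mean was 3.58 over 12326 genes with at least 100 counts, so counts varied more than counting alone gives.

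Members and gene lists were chosen with earlier results of these data known. Named genes were BCLAF1, THRAP3, the 20 genes with the most counts, the 5 highest of each RNA class, list members, and the 10 most variable genes with a mean of at least 10 CPM. RNA classes, spans and sequences came from RefSeq (GRCh38.p14), which matched 37588 genes. With 1 group no test was made. Alternatives were other thresholds, TMM scaling (edgeR 4.0.16), totals without mitochondrial genes, and leaving out each library. The counting script was tested on simulated data. Some list members are counted but not reported here by name.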

Additional observations from a re-analysis of the deposited data

Results flagged for a closer look

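One entry of the table names no gene and belongs to none of the comparisons. It held 2.84% of the counts of shCONTROL replicate 1, 2.89% of those of replicate 2 and 3.14% of those of replicate 3, which is far above the floor of 3 counts. It lies outside the main measurement and was kept out of every total. What it holds was not analysed here.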

How the results depend on the processing

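Leaving the mitochondrial genes out of the total moved 8 shares beyond the spread between libraries, each slightly up: other protein-coding mRNAs to 84.0%, ribosomal protein mRNAs to 3.96%, histone mRNAs to 1.36%, other long noncoding RNAs to 1.36%, snRNAs to 0.0273%, pseudogenes to 1.82%, symbols without a RefSeq entry to 0.288% and genes with no symbol to 1.40%. A smaller total raises every remaining share of a library by the same factor, so this rise was fixed in advance. It passed the spread only in classes whose relative spread was small. With a threshold of 5 CPM the B cell, mast cell and neural lists each had 0 expressed members. At 0.5 CPM the epithelial list had 2, and with each library left out it had 1 to 2 (2 without replicate 3), because KRT18 was near 1 CPM. TMM scaling changed 0 of 34 list counts and moved the 302 levels of expressed list members by between -0.0742% and 0.114%. Leaving out a library changed 3 list counts and moved 0 of those 302 levels by over 1.5-fold. It moved 7 of the 15 list members above 0 but not at 1 CPM in all libraries by more than that (MARCO, TCF7, CD79A, SPRY4, CDKN1C, VTRNA1-2 and VTRNA2-1), and all 10 of the most variable genes, among them DTX2 (0.384 to 15.6 CPM), BRPF1 (9.32 to 37.6) and ZC3H11A (12.6 to 41.8). Another gene length for the values per kilobase could not be run, since the reference used gives 1 length per gene. No paired analysis was possible because only 1 group was described. Depth limits what is read from genes near 1 CPM, where the spread was widest, and 165 genes stood at 0 in 1 library beside 100 counts or more in another.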
